A study of Mus musculus with 2 samples.

Results

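NF-kB subunits and the genes that feed back on NF-kB were compared in cultured cells labelled as mouse cavernous endothelial cells (MCECs). The cells were in high glucose, with or without PC-NVs. The 10 genes are Nfkb1, Nfkb2, Rela and Relb, which encode subunits, Nfkbia, Nfkbiz and Bcl3, which encode proteins of the IkB family, and Tnfaip3, Birc3 and Zc3h12a, which encode enzymes that act on signaling proteins or on mRNA. They were taken by symbol from a list of pathway members, which was drawn up with earlier results of these data known, and all 10 were found, in 16 of the 33299 transcript rows and among 23183 gene symbols.

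There were 2 libraries, 1 per group. HG+HBS was prepared from MCECs in 30 mM glucose given HBS, the HEPES-buffered vehicle. HG+PC-NVs was prepared from MCECs in the same glucose given 1 µg/mL of PC-NVs, which are vesicle-like particles made by pressing cultured cavernous pericytes through membranes. By the study's methods, cells spent 72 hours in glucose and the last 24 hours with PC-NVs before RNA isolation, while the sample labels give 5 days of glucose. Both cell types were primary cultures of passages 2 to 4, from male C57BL/6J mice aged 8 weeks by the study's methods, and how many animals or dishes each library pools is not given in the sources used here. High glucose was shared by both groups, so nothing here compares high with normal glucose.

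Values are normalized FPKM, Cufflinks' measure of fragments per transcript length and library depth, which are corrected for transcript length and can be compared between genes. With 1 library per group, no difference could be set against the spread between cultures, no p-value was computed, and "higher" and "lower" describe these 2 libraries. Intervals are 95% intervals for counting error only, from an estimate of about 13400000 fragments for the HG+HBS library and 11600000 for the other. Fold changes are FPKM ratios unless log2 ratios are named, which were taken on the log2(FPKM + 1) scale and are therefore smaller for genes at low levels.

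The labelled cell type was checked first. Of 12 endothelial markers, 6 were under 1 FPKM in both libraries (Tek, Tie1, Kdr, Vwf, Emcn and Cldn5). Pecam1 was at 1.05 FPKM without and 0.938 FPKM with PC-NVs, Flt1 at 1.19 and 0.835 FPKM, and Cdh5 at 5.05 and 5.73 FPKM. Higher levels were found for Egfl7 (9.48 and 8.57 FPKM), Esam (17.4 and 11.7 FPKM) and Eng (29.0 and 21.4 FPKM). The 12 summed to 65.2 and 50.6 FPKM. The 6 fibroblast markers summed to 1839 and 2196 FPKM, or to 1216 and 914 FPKM without Dcn, the 9 pericyte markers to 102.8 and 94.1 FPKM, the 5 smooth muscle markers to 71.0 and 36.8 FPKM, and the 8 myeloid markers to 322 and 565 FPKM. Of the myeloid sums, Cd14 alone made up 36.6 and 252 FPKM. Each of the 6 fibroblast markers, the lowest being Lum (45.4 and 36.3 FPKM), was above Eng, the highest endothelial marker, in both libraries. The name MCECs is therefore used here as a label, which these levels do not bear out. No marker was listed at 0 in either library. Bulk RNA cannot tell fewer cells of a type from less RNA per cell, and the part of any of these cell types in the results below was not tested.

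NF-kB is a family of dimeric transcription factors that are held in the cytoplasm by IkB proteins until IkB kinase (IKK) marks IkB for destruction. The canonical route releases dimers of RelA with p50, the product of Nfkb1, and the non-canonical route acts through processing of p100, the product of Nfkb2, to p52, which pairs with RelB. Released dimers induce their own brakes, among them IkB-alpha, which recaptures NF-kB, and A20, which edits ubiquitin chains on signaling proteins, so mRNA levels of these genes are often used as a readout of NF-kB activity. In endothelial cells the pathway is known for switching on adhesion molecules and chemokines after cytokine exposure.

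All 10 genes were listed higher in HG+PC-NVs than in HG+HBS, by widely different amounts. Zc3h12a and Nfkbiz differed most, with log2 ratios of 2.66 and 2.58, followed by Tnfaip3 (1.59) and Nfkbia (1.54). Relb (1.04) and Birc3 (1.01) lay just past 2-fold, Nfkb1 (0.76), Nfkb2 (0.68) and Bcl3 (0.59) below it, and Rela (0.20) differed least. The median log2 ratio was 1.03 over the 10 genes, 0.72 over the 4 subunits and 1.57 over the other 6 genes, against -0.01 over all 11785 genes compared, those whose log2 values averaged 1 or more.

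**Figure D1:**
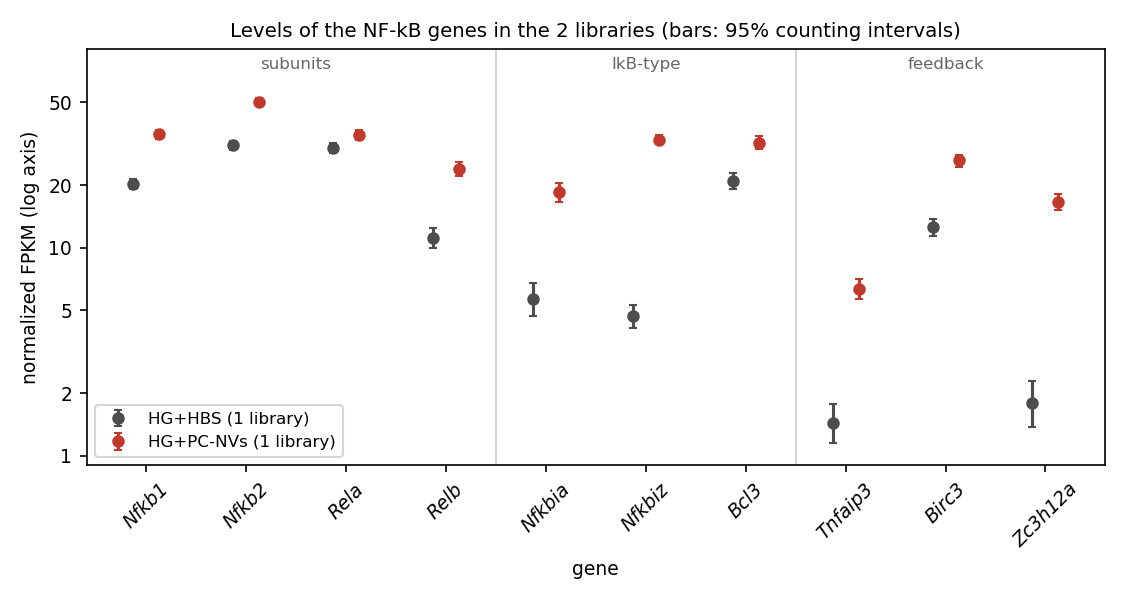
Normalized FPKM (log axis) of the 10 genes in HG+HBS (gray) and HG+PC-NVs (red), 1 library per point, with 95% counting intervals as bars. Each red point lies above its gray partner, with the widest gaps at Zc3h12a (1.79 and 16.6 FPKM) and Nfkbiz (4.69 and 33.0 FPKM) and the narrowest at Rela (30.2 and 34.8 FPKM), where the intervals still do not overlap.

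Differences of over 2-fold on the log2(FPKM + 1) scale were found in 6 of the 10 genes (Zc3h12a, Nfkbiz, Tnfaip3, Nfkbia, Relb and Birc3), all higher in HG+PC-NVs, and in 0 genes lower. Over all 11785 genes, 2.38% were over 2-fold higher and 0.798% over 2-fold lower. Over 4-fold, 2 of the 10 (Zc3h12a and Nfkbiz) were higher, against 0.636% of all genes, and over 1.5-fold 9 of the 10, all but Rela, against 5.33%. The direction of all genes together was near balance, with 48.4% higher in HG+PC-NVs. The share over 2-fold higher varied with level, at 2.88% for genes whose log2 values averaged from 1 to under 3, where Tnfaip3 and Zc3h12a lie, 1.83% from 3 to under 6, where the other 8 lie, and 3.44% at 6 and over. Ranked by log2 ratio from the highest, Zc3h12a stood at place 40, Nfkbiz at 44, Tnfaip3 at 114 and Nfkbia at 121 of 11785. The calls nearest the threshold depended on scaling, since Birc3 fell to 0.93 and Relb to 0.96 when the housekeeping genes were centred, which left 4 of the 10 past 2-fold. Bcl3, at 1.505-fold on this scale, passed 1.5-fold only narrowly. It lay below 1.5-fold with quantile normalization (log2 ratio 0.57), upper-quartile scaling (0.56) and housekeeping centring (0.51).

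**Figure D2:**
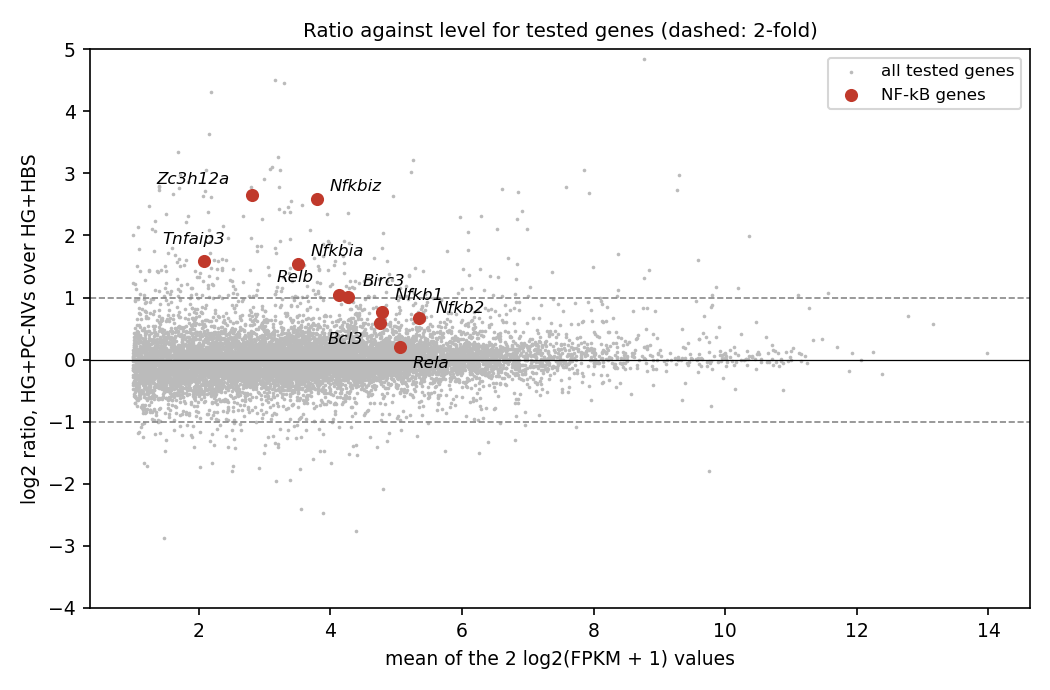
Log2 ratio of HG+PC-NVs over HG+HBS against the mean of the log2(FPKM + 1) values for 11785 genes (gray) with the 10 NF-kB genes in red, and dashed lines at 2-fold; 10 genes lie beyond the vertical axis. The red points all lie above 0, from 0.20 for Rela, inside the gray band, to 2.66 for Zc3h12a.

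Nfkb2 and Rela were the most abundant of these transcripts in HG+HBS, and of the 4 subunit genes only Relb was past 2-fold. Rela encodes RelA (p65), the subunit with the transactivation domain of the canonical dimer. It lies on chromosome 19 of GRCm38 from 5637483 to 5648130 and was listed at 30.2 FPKM without PC-NVs and at 34.8 FPKM with them. The 1.15-fold difference (counting interval 1.06 to 1.25) exceeded counting error, but 42.3% of all genes differed at least as far in either direction, so it does not stand out from the spread over genes. Nfkb1 (chromosome 3, 135584655 to 135691547), which encodes p105 and its product p50, was at 20.3 and 35.0 FPKM, a 1.73-fold difference (1.60 to 1.86). It was thus below Rela in HG+HBS and level with it in HG+PC-NVs.

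The non-canonical pair was also higher. Relb (chromosome 7, 19606217 to 19629438), which encodes RelB, was at 11.2 and 24.001 FPKM, a 2.15-fold difference (1.88 to 2.46). Almost all of its signal was in 1 of its 2 rows, the other being under 0.02 FPKM in both libraries. Nfkb2 (chromosome 19, 46304320 to 46312385), which encodes p100 and its product p52, was at 31.1 and 50.4 FPKM, a 1.62-fold difference (1.52 to 1.73). Its 3 rows did not move together. The first went from 16.2 to 34.9 FPKM and the second from 1.45 to 2.91 FPKM, while the third was at 13.5 and 12.6 FPKM. The files give only the symbol for each row, so the rows could not be assigned to transcripts, and with the first row alone Nfkb2 had a log2 ratio of 1.06 and passed 2-fold. Exons of Psd and AC114539.1 overlap Nfkb2 on the opposite strand, as do those of Gm16175 at Bcl3, and whether the authors' counting used strand is not given in the sources used here.

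Of the 3 genes of the IkB family among the 10, Nfkbia and Nfkbiz had higher log2 ratios than any of the 4 subunit genes, and Bcl3 did not. Nfkbia encodes IkB-alpha, the inhibitor that enters the nucleus and removes NF-kB from DNA. It lies on the reverse strand of chromosome 12 from 55489410 to 55492647 and had a single row. Its FPKM were 5.68 without and 18.4 with PC-NVs, a 3.25-fold difference (2.63 to 3.98), from about 120 and 338 fragments. Nfkbiz (chromosome 16, 55811375 to 55838899) encodes IkB-zeta, a nuclear protein that is needed for the induction of a set of secondary response genes. Its sum was 4.69 and 33.0 FPKM, a 7.04-fold difference (6.17 to 8.02), from about 258 and 1580 fragments. Of its 3 rows, the main one went from 4.09 to 30.4 FPKM, a further one from 0.00152 to 1.76 FPKM, and the last was at 0.591 and 0.802 FPKM. By level among all 23183 symbols, Nfkbiz went from place 8769 in HG+HBS to place 2542 in HG+PC-NVs.

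Bcl3 (chromosome 7, 19808462 to 19822770) encodes a nuclear IkB protein that binds p50 and p52 homodimers. It was already at 21.0 FPKM without PC-NVs and was at 32.0 FPKM with them, a 1.53-fold difference (1.36 to 1.71). Bcl3 and Relb lie near each other on chromosome 7, yet their log2 ratios were 0.59 and 1.04.

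The 3 enzymes of the feedback arm were all past 2-fold, and Tnfaip3 and Zc3h12a were the lowest of the 10 in HG+HBS. Tnfaip3 (chromosome 10, 19000910 to 19015657) encodes A20, which trims and attaches ubiquitin on RIPK1 and other signaling proteins. It was at 1.44 FPKM without PC-NVs and at 6.35 FPKM with them, a 4.42-fold difference (3.48 to 5.61) from about 85.0 and 327 fragments, and stayed the lowest of the 10 in HG+PC-NVs. Its log2 ratio of 1.59 became 2.07 with a pseudocount of 0.1 FPKM in place of 1. Zc3h12a (chromosome 4, 125118423 to 125127840) encodes Regnase-1, an RNase that degrades mRNAs of Il6 and other inflammatory genes. It was at 1.79 and 16.6 FPKM, the widest difference among the 10 at 9.29-fold (7.17 to 11.9), from about 65.8 and 532 fragments. Birc3 (chromosome 9, 7848699 to 7873186) encodes cIAP2, a ubiquitin ligase of the TNF receptor complex that also keeps the NF-kB inducing kinase low. It was at 12.5 and 26.3 FPKM, a 2.10-fold difference (1.88 to 2.34). The log2 ratios of Zc3h12a, Nfkbiz, Tnfaip3 and Nfkbia stayed above 1.46 in every normalization, pseudocount and row choice tried.

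The order of levels shifted with these differences. In HG+HBS the order was Nfkb2, Rela, Bcl3, Nfkb1, Birc3, Relb, Nfkbia, Nfkbiz, Zc3h12a and Tnfaip3. Counting intervals overlapped within the pairs Nfkb2 and Rela, Bcl3 and Nfkb1, Birc3 and Relb, Nfkbia and Nfkbiz, and Zc3h12a and Tnfaip3, and did not overlap between neighbours of different pairs. In HG+PC-NVs, Nfkb2 was highest, and Nfkb1, Rela, Nfkbiz and Bcl3 followed with each interval overlapping the next, between 35.0 and 32.0 FPKM. Birc3 and Relb came next and overlapped, then Nfkbia and Zc3h12a, which overlapped, and Tnfaip3 alone at the end.

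A ratio to Rela within the same library does not change with a single scale factor per library. A normalization that depends on level, such as quantile normalization, can change it. In HG+HBS, Nfkbia was at 18.8% of the FPKM of Rela, Nfkbiz at 15.5%, Zc3h12a at 5.92% and Tnfaip3 at 4.77%. In HG+PC-NVs the same ratios were 52.9% for Nfkbia, 94.8% for Nfkbiz, 47.7% for Zc3h12a and 18.2% for Tnfaip3. Nfkb1 went from 67.2% to 101% of Rela, Nfkb2 from 103% to 145%, Relb from 37.0% to 68.9%, Bcl3 from 69.4% to 92.0% and Birc3 from 41.5% to 75.4%. All 9 genes were thus higher relative to Rela in HG+PC-NVs. That direction was fixed by the choice of Rela, whose FPKM differed least (1.15-fold), with Bcl3 next (1.53-fold). It is therefore no separate result. The sizes of the ratios show unequal differences and not that Rela itself was constant.

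**Figure D3:**
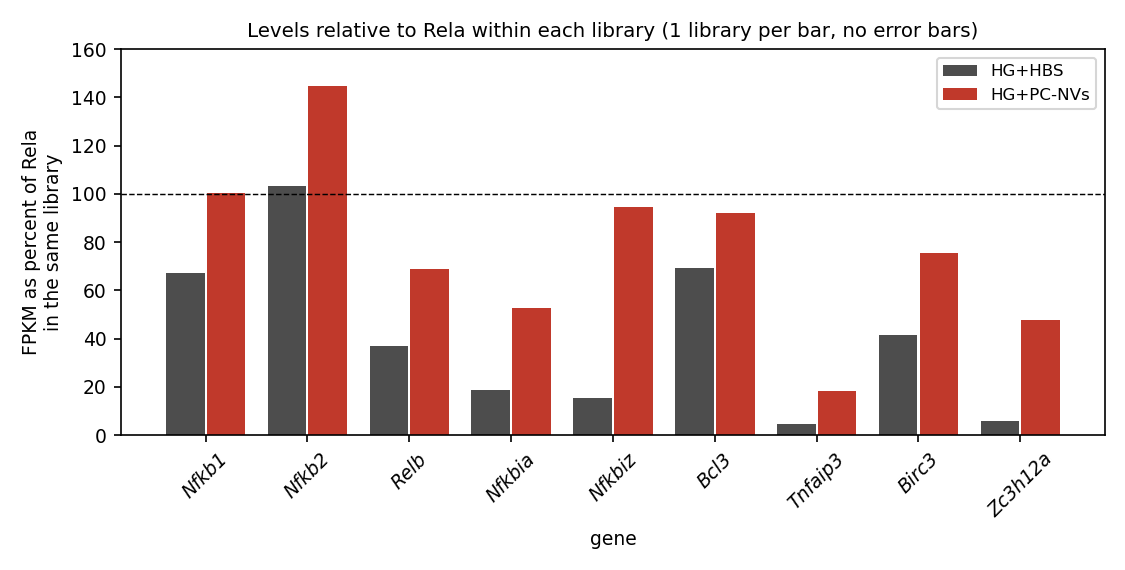
FPKM of 9 genes as a percentage of the FPKM of Rela in the same library, gray for HG+HBS and red for HG+PC-NVs, 1 library per bar, with a dashed line at 100%. Every red bar is taller than its gray partner, which follows from Rela having a smaller fold difference than any of the 9 genes. Nfkbiz goes from 15.5% to 94.8%.

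The rest of the pathway was read from lists that hold these genes and 49 others, 44 of them above the filter on level. Of the 44, 3 were over 2-fold higher, 0 over 2-fold lower, and their median log2 ratio was 0.16. Over all 11785 genes compared, 2.38% were over 2-fold higher and 0.798% over 2-fold lower. The IKK complex and its activators, which relay receptor signals to IkB, showed a small median difference. The highest log2 ratio of this list (0.83) was nonetheless above that of Nfkb1 (0.76). Of the 20 genes compared, 0 were past 2-fold in either direction, 14 were higher and 6 lower, and the median log2 ratio was 0.09, with a range from -0.48 to 0.83. Irak1, the kinase of the interleukin-1 receptor complex with the highest mean level on this list, was at 28.6 and 27.3 FPKM. This median is close to that of the 12 housekeeping genes (0.08), whose own ratios ran from -0.31 to 0.26, with Ppia, the most abundant of them, at 1605 and 1787 FPKM.

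Among 15 genes that act on ubiquitin or on signaling proteins, the median log2 ratio was 0.23. By any amount, 10 were higher and 5 lower, against 48.4% of all genes higher. Of the 15, 5 were over 2-fold higher and 0 over 2-fold lower, against 2.38% and 0.798% of all genes. With quantile normalization, upper-quartile scaling or housekeeping centring 3 were, since Birc3 and Rnf11 then lay below 2-fold. Tnfaip3 and Birc3 are 2 of the 5. The others were Irak3, Tnip1 and Rnf11. Irak3 encodes IRAK-M, which blocks signaling from Toll-like receptors, and was at 3.79 FPKM without PC-NVs and 15.6 FPKM with them, a 4.11-fold difference (3.44 to 4.90). Tnip1 encodes ABIN-1, a ubiquitin-binding partner of A20, and was at 14.0 and 36.4 FPKM, a 2.61-fold difference (2.36 to 2.88). Rnf11, which encodes a RING finger protein of the A20 complex and is the most abundant gene of this list, was at 67.6 and 138 FPKM, a 2.05-fold difference (1.97 to 2.13) whose interval spans 2. Other genes of this list were not past 2-fold, and they reached down to a log2 ratio of -0.90.

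Of all genes compared, 2.38% were over 2-fold higher. Among 9 genes of mRNA decay, Zc3h12a was the only one past 2-fold, and the median log2 ratio was 0.18. Zfp36l1, an AU-rich element binding protein and the most abundant of them, was at 55.6 and 85.7 FPKM, with a log2 ratio of 0.61. The subunit list adds Rel to the 4 subunits above, and of its 5 genes 1 was past 2-fold (Relb), with a median of 0.68. The list of the IkB family adds Nfkbib, Nfkbid and Nfkbie, and of the 5 genes compared 2 were past 2-fold (Nfkbiz and Nfkbia), with a median of 0.59, or 1.07 over its genes with a mean log2 value of 3 or more.

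**Figure D4:**
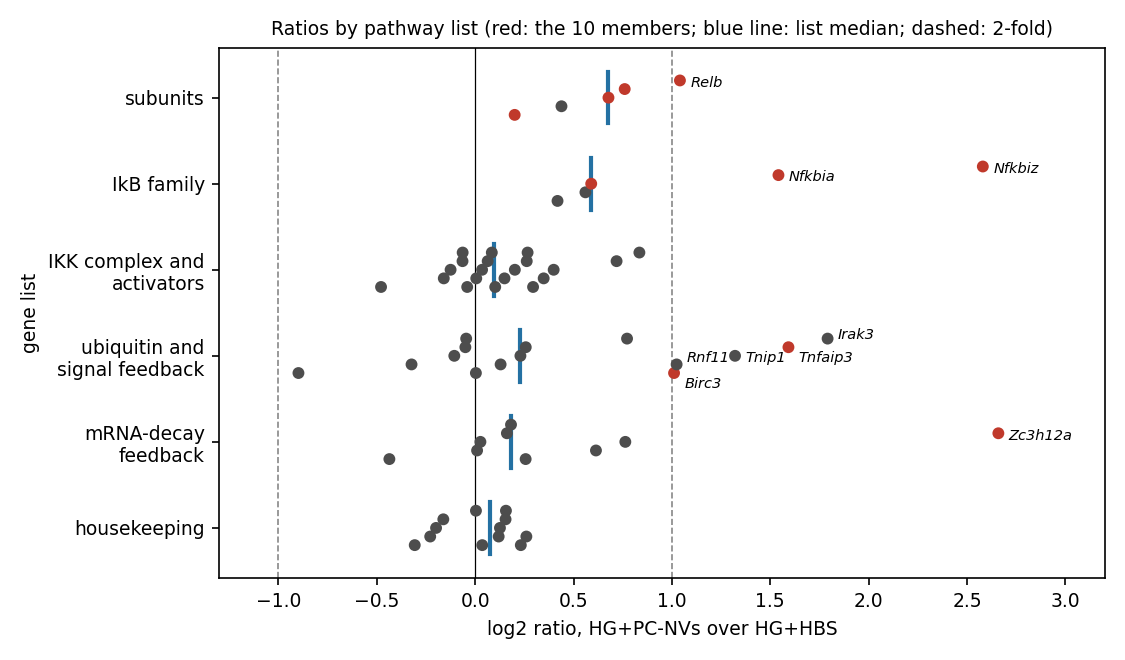
Log2 ratio of HG+PC-NVs over HG+HBS for each compared gene of 6 lists, with the 10 NF-kB genes in red, other genes in gray, list medians as blue lines and dashed lines at 2-fold. Points to the right of the right dashed line are named, and the IKK complex with its activators (median 0.09) and the housekeeping genes (median 0.08) have 0 points past 2-fold.

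The cell type markers differed in both directions. For scale, 2.38% of all 11785 genes were over 2-fold higher and 0.798% over 2-fold lower. Of 8 myeloid markers, 3 were over 2-fold higher, Cd14 (36.6 and 252 FPKM), Adgre1 (7.44 and 42.5 FPKM) and Fcer1g (18.8 and 41.1 FPKM), and 0 were over 2-fold lower. The others were near level or lower, with Ptprc at 1.44 and 1.67 FPKM, Itgam at 1.56 and 2.02 FPKM, Lyz2 at 212 and 193 FPKM, Cd68 at 36.2 and 26.3 FPKM and Csf1r at 8.39 and 6.20 FPKM. Of 9 pericyte markers, Rgs5 (1.69 and 7.23 FPKM) and Kcnj8 (7.98 and 20.4 FPKM) were over 2-fold higher, while 5 of the 8 compared were lower, among them Anpep (26.7 and 13.7 FPKM) and Cspg4 (20.4 and 12.2 FPKM), and the median log2 ratio was -0.19. Of 6 fibroblast markers, Dcn was over 2-fold higher, at 623 and 1283 FPKM, while the other 5 were lower by less than 2-fold, among them Col1a2 (312 and 198 FPKM), and the median was -0.26. Of 5 smooth muscle markers Acta2 (27.6 and 8.02 FPKM) and Tagln (17.3 and 7.34 FPKM) were over 2-fold lower. Of 12 endothelial markers, 0 of the 5 compared were past 2-fold. The part of these markers' cells in the values of the NF-kB genes was not tested.

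The DNA before the starts of these genes was searched for the kappaB consensus, the 10-base site of NF-kB (GGG, a purine, 2 bases of any kind, 2 pyrimidines, then CC, on either strand). RefSeq promoters on GRCm38.p6 were found for 7 of the 10 genes, and Nfkb1, Relb and Nfkbiz have no entry in the table. In the 250 bases before a start, 3 of the 7 held a match, Nfkbia, Tnfaip3 and Nfkb2, while Rela, Bcl3, Birc3 and Zc3h12a did not. Of all 32851 promoters of this length, 7.25% held a match. By gene, the share was 8.23% of all 27025 genes in the table, 10.7% of 9004 compared genes and 17.6% of the 205 among them that were over 2-fold higher. The share among genes over 2-fold lower was not counted. A match is a description of letters and not of binding.

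Nfkbia and Zc3h12a are shown in full, since they combine a wide difference with a window that overlaps no annotated gene, the former with a match and the latter without. Both are on the reverse strand and are written 5′ to 3′ along the gene, ending at the base before the start, with the match in capitals. The first covers chr12:55492648-55492897 and the second chr4:125127882-125128131 of GRCm38.
Nfkbia: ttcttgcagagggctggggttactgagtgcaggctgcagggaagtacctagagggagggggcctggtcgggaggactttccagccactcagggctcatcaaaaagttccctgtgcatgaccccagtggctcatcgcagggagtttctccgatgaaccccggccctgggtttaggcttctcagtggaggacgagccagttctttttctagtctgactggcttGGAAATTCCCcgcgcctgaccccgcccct
Zc3h12a: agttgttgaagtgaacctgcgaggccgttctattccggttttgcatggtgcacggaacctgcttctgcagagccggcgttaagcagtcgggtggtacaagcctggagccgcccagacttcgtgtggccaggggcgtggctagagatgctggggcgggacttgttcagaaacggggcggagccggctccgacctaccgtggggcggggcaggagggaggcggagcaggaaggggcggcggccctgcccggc

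In Nfkbia, whose FPKM was 3.25-fold higher in HG+PC-NVs, the match covers bases 29 to 20 before the start. In Zc3h12a, which was 9.29-fold higher, these letters are not in this window, and more distant sequence was not searched. The other matches are shown as short stretches, since their windows overlap annotated transcripts of the gene itself. Tnfaip3 holds a match at bases 125 to 116 before its start and another at 12 to 3, in an intron of longer annotated Tnfaip3 transcripts. Nfkb2 has 3 annotated starts, and the windows of all 3 hold a match. The first window has overlapping matches on both strands at bases 39 to 29, shown as 1 run of capitals, and another at 11 to 2. The windows of the second and the third start have a match at 236 to 227 and at 225 to 216. In GENCODE M21 the matches of the first and the last window lie in untranslated exons of other Nfkb2 transcripts, and those of the first and the second in exons of AC114539.1 on the opposite strand.
Tnfaip3, chr10:19015516-19015545, reverse strand: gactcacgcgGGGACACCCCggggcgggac
Tnfaip3, chr10:19015411-19015432, reverse strand: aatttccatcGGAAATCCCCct
Nfkb2, chr19:46304689-46304717, forward strand, first start: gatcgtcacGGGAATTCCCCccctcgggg
Nfkb2, chr19:46304716-46304736, forward strand, first start: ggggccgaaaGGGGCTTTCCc
Nfkb2, chr19:46305449-46305478, forward strand, second start: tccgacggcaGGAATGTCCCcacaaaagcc
Nfkb2, chr19:46305695-46305724, forward strand, last start: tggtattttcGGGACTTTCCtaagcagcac

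The 3 genes with a match differed by 4.42-fold (Tnfaip3), 3.25-fold (Nfkbia) and 1.62-fold (Nfkb2). The 4 without a match in these windows ran from 1.15-fold (Rela) to 9.29-fold (Zc3h12a), so the ranges overlap. The AP-1 site TGANTCA, searched as well, was found before starts of Tnfaip3 and Nfkb2, 2 of the 7 genes, against 7.82% of all genes in the table and 5.68% of compared genes. TATAAA was found before a start of Tnfaip3, 1 of the 7, against 14.3% and 7.80%. None of these AP-1 or TATAAA matches overlapped a kappaB match.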

How the data were processed

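RNA of MCECs was sequenced as 1 library per condition. The authors trimmed reads with FASTX_Trimmer and BBMap, aligned them with TopHat, computed read counts with BEDTools and FPKM with Cufflinks, and normalized in R with edgeR, which the methods name quantile normalization. The submitters' processing notes give mm10, which is GRCm38. Versions and the gene annotation are not given in the sources used here. The authors deposited log2 values per transcript row, read as log2(normalized FPKM + 1) from their range of 0 to 13.99. Here each value was converted to FPKM, the rows of a symbol were summed, and log2 ratios were taken with a pseudocount of 1 over the 11785 genes whose log2 values averaged 1 or more. The deposited values were not normalized a second time. A further quantile normalization, upper-quartile scaling, centring on the median or on housekeeping genes, a pseudocount of 0.1, the highest row, other filters on level and fold thresholds of 1.5 and 4 were tried as alternatives.

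Depth was estimated from 2189 genes that have only 1 annotated transcript, of over 1500 nt. Their low values of FPKM times kb piled up at 0.0748 in HG+HBS and at 0.086 with PC-NVs, taken as 1 fragment, with further peaks at 1.99 and 2.01 times these values. Fragments per gene use the longest coding transcript of GENCODE M21, which also gave the gene coordinates. Intervals are Wilson intervals for folds and exact Poisson intervals for levels. They cover counting error only and are approximate. The calculations were tested on simulated data.

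The 10 genes and all lists were chosen with earlier results of these data known. The genes named are the 10, list genes past 2-fold, the most abundant gene of each list and cell type markers. No gene was named for likeness of pattern, since over 2 libraries any pair of genes that both differ correlates perfectly. Calculations ran in Python 3.11.15 with scipy 1.17.1, numpy 2.4.6 and pandas 2.3.3, and figures were drawn with matplotlib 3.10.9.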

Additional observations from a re-analysis of the deposited data

How the results depend on the processing

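Of 78 alternative log2 ratios of the 10 genes, all 78 were above 0, and 74 differed from the reported value by less than the counting error. Part of this agreement was fixed in advance. Filters on level change which genes are compared and not their ratios, so those settings repeat the reported values. The highest row likewise repeats the value of each gene with a single row. The 4 that moved further were those of Nfkbiz (2.79), Tnfaip3 (2.07) and Zc3h12a (3.15) with a pseudocount of 0.1 and of Nfkb2 (1.06) with its highest row. The number of the 10 genes over 2-fold higher was 6 as reported, 5 with quantile normalization or upper-quartile scaling, 4 with housekeeping centring and 7 with the highest row. Of all genes compared, 2.38% were over 2-fold higher as reported, 2.22% with quantile normalization and 2.21% with upper-quartile scaling. The share was 2.01% with housekeeping centring and 2.46% with the highest row. With the 4-fold threshold 2 of the 10 were higher, against 0.636% of all genes. With genes at a mean log2 value of at least 3, Tnfaip3 and Zc3h12a dropped out and 4 of 8 passed 2-fold, against 2.11% of all genes at that level. The number of the 10 that were lower was 0 throughout, against 0.0594% (4-fold threshold) to 3.57% (1.5-fold threshold) of all genes. For ubiquitin-editing and signal-level feedback the number over 2-fold higher went from 5 to 3 with quantile normalization, with upper-quartile scaling and with housekeeping centring, which left Birc3 and Rnf11 below the threshold. For the subunits it was 0 with housekeeping centring, and 2 with the highest row. For mRNA-decay feedback it was 0 at a mean log2 value of at least 3, since Zc3h12a was not compared. The median of the IkB family was 1.07 at that level, which leaves out Nfkbie. The median of the IKK complex and its activators ran from 0.02 to 0.18 over the settings, and that of the housekeeping genes from -0.09 to 0.09, so its sign depends on scaling.

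No paired analysis was possible because each group is a single library, and leaving out replicates did not apply. Depth limits Tnfaip3 and Zc3h12a most, with about 85.0 and 65.8 fragments in HG+HBS.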

Other observations

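Other motifs were more frequent before genes over 2-fold higher in HG+PC-NVs than before compared genes as a whole. The AP-1 site TGANTCA was in the 250 bases before a start of 17.6% of 205 genes over 2-fold higher and of 5.68% of 9004 compared genes, and TATAAA in 19.5% and 7.80%. These shares are given as descriptions, and base composition, which bears on all of these counts, was not matched. Genes over 2-fold lower were not counted as a set, so the shares cannot be tied to the higher direction.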
